A study of Mus musculus with 16 samples.

Results

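The Ifng and Il22 locus is a 550 kb stretch of mouse chromosome 10 (build mm9, chr10:117500000-118050000) that holds the genes of 2 T cell cytokines, interferon gamma and interleukin 22. Its members are the open chromatin regions that overlap this window by at least 1 bp. They were chosen by position alone, in a window picked with the region counts of this list already known, so their number is a description and was not tested. The locus held 51 of the 4538 regions on chromosome 10 and of the 75363 in the whole list. The assay was ATAC-seq, in which a transposase inserts adapters where DNA is not wrapped in nucleosomes, on 16 samples of sorted CD4+CD25+ Treg cells (regulatory T cells) from 8 C57BL/6 mice. Each mouse gave a spleen sample and a sample of 1 of 3 other tissues. These were epididymal adipose tissue (VAT) and injured hindlimb skeletal muscle, with 2 mice each, and colonic lamina propria, with 2 mice in the group titled Nrp1p and 2 in the group titled Nrp1n. The spleen samples form 4 groups of 2, named for the tissue taken from the same mouse. All groups share the strain and the label CD4+CD25+ Treg, and the titles of the colon groups name Nrp1, a surface receptor often used to divide Treg cells. CD25 marks Treg cells but is also carried by recently activated conventional T cells, and no gene level was measured here with which to check the sort. The list analysed gives positions only, over the series as a whole, so the tissue from which a region came cannot be told. Depth per sample is unknown, and no region has a replicate error.

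Interferon gamma is the signature cytokine of type 1 helper T cells, natural killer cells and cytotoxic T cells, and it activates macrophages and antigen presentation. Treg cells usually make little of it, but Treg cells that take up the type 1 factor T-bet can make some. Ifng is a short gene in a long intergenic stretch, and it is known for a chain of conserved noncoding sequences on both sides, bound by T-bet, STAT, NFAT, AP-1 and Runx factors, that act as distal enhancers or boundaries. Interleukin 22 belongs to the interleukin 10 family. It is made by type 17 and type 22 helper T cells and by type 3 innate lymphoid cells under the factors ROR gamma t and AhR, and it acts on epithelial cells, with roles in barrier defence and repair in the gut.

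In the gene order of the RefSeq table (assembly GRCm38.p6, used here for names and order only), Il22 is followed by 6 pseudogenes, then Iltifb, a second interleukin 22 gene copy, then another 6 pseudogenes, then Ifng. Ifngas1, a long noncoding RNA gene known for a role in Ifng expression, comes directly after Ifng. Mdm1 precedes Il22 with 1 noncoding RNA gene between them, and the next protein-coding gene after Ifngas1 is Dyrk2, a kinase gene, with 5 noncoding RNA genes before it. The gene positions used below, 117.64 Mb for Il22 and 117.88 Mb for Ifng, are rounded mm9 values, so each distance to a gene is uncertain by about 5 kb, while distances between regions are exact.

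The 250 bases before the RefSeq start of Ifng (GRCm38.p6, plus strand, chr10:118440796-118441045, a build whose positions cannot be set beside the mm9 regions) are shown because regions were listed within 5 kb of the gene's mm9 position. Capitals mark matches to the motifs searched on both strands.
Ifng: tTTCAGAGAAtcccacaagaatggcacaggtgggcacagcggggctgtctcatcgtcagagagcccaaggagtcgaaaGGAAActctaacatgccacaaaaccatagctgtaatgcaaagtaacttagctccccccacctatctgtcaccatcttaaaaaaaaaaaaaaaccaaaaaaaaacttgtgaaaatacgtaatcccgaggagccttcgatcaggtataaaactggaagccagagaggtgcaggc
The sequence held 1 match to the STAT motif TTCNNNGAA, which 7.02% of 32851 promoters of the same length held, and 1 to the NFAT motif GGAAA, which 55.6% held. The matches did not overlap. The T-box motif GTGTGA (12.3% of promoters), the AP-1 motif TGANTCA (6.75%), the Runx motif TGTGGT (14.0%), the ROR motif AGGTCA (14.0%) and the AhR motif GCGTG (28.2%) had no match in these letters. The 250 bases before the Il22 start held 1 match to the NFAT motif and none to the other 6 motifs. Those before the Iltifb start held 1 match to the NFAT motif, 1 to the ROR motif and no other. A match is a description of the letters and not a bound site.

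Il22 and Iltifb are known as close copies of each other, and short reads from like sequences can be hard to place. The best-matched ungapped stretch of the bases before their starts came from GRCm38.p6 chr10:118204885-118204938 on the plus strand for Il22 and chr10:118295042-118295095 on the minus strand for Iltifb, printed here with differing bases in capitals.
Il22: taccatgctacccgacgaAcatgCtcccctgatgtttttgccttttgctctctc
Iltifb: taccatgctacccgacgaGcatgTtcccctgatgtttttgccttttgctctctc
Of these 54 bases, 52 (96.3%) were identical, and the longest run without a difference was 30 bases. The stretch was picked as the best match within the 250 bases before each start, so a high identity was built in. It lay 79 to 26 bases before the Il22 start and 57 to 4 bases before the Iltifb start. Likeness over the remaining bases was not measured, so the identity holds for this stretch only. Whether reads from the copies could be told apart was not tested.

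The 51 regions lay in 4 groups separated by gaps of more than 30 kb, a limit set after the positions were seen. A stretch below Il22 held 15 regions over 108 kb (mm9, chr10:117501829-117609868). A stretch that brackets Ifng held 25 regions over 103 kb (chr10:117841599-117944972), from 38.4 kb below to 65.0 kb above the gene's position. A stretch of 55.4 kb beyond it held 10 regions (chr10:117987366-118042793). The remaining region stood alone 72.3 kb below Ifng (chr10:117807599-117807794, 196 bp). The Ifng stretch was the densest of the 3, with 2.42 regions per 10 kb and 5.33% of its bases in regions. The stretch below Il22 had 1.39 per 10 kb and 3.23% of its bases in regions, and the one above Ifng had 1.8 per 10 kb and 3.69%.

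**Figure D1:**
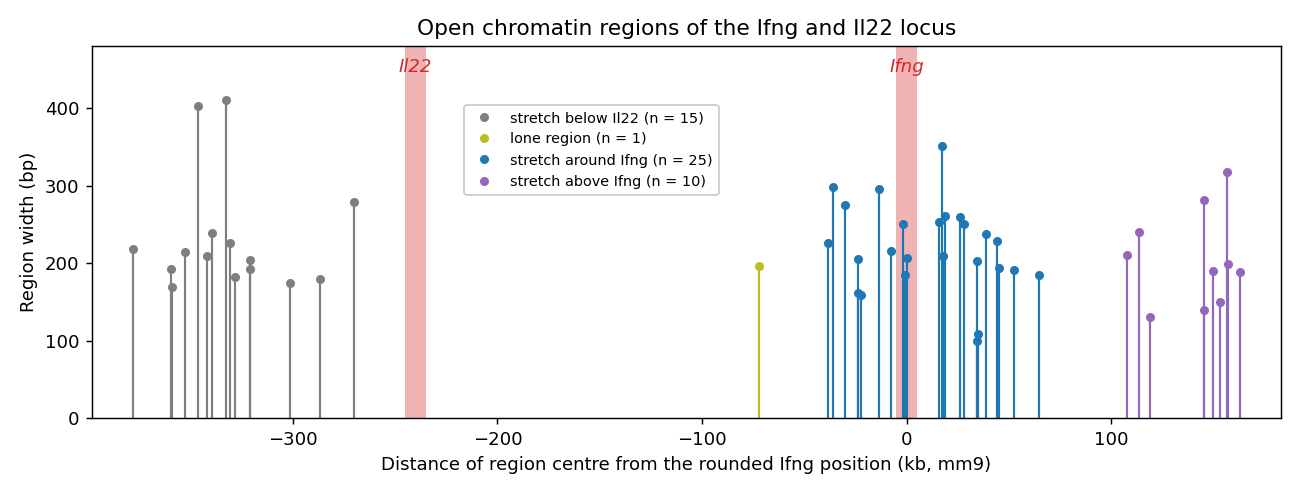
Width in bp (vertical axis) of each of the 51 regions by the distance of its centre from the rounded Ifng position in kb (horizontal axis, mm9). Each line and point is 1 region, coloured by stretch, and the red bands are the gene positions with 5 kb on both sides; 25 regions bracket Ifng and none lies in the 198 kb stretch that holds Il22.

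In steps of 10 kb, 25 of the 55 steps of the locus (45.5%) held the centre of at least 1 region, against 18.6% of the 12640 steps on the rest of chromosome 10. The exact binomial (Clopper-Pearson) 95% interval of the locus share was 32.0 to 59.4%. It treats steps as independent, which neighbouring steps are not, and says nothing about the spread between mice. Because the window was picked with the region counts known, the interval is no test of the locus against the rest. There were 30 empty steps, 11 with 1 region, 5 with 2, 6 with 3 and 3 with 4. Steps with 3 or more regions made up 16.4% of the locus and 4.65% of the rest. Where a step held any region, the mean number was 2.04 in the locus and 1.91 elsewhere. The locus therefore differed from the rest of the chromosome more in how many steps were occupied than in how full an occupied step was. No step reached the chromosome's maximum of 8. Steps with 4 or more regions were 3 of the 55 in the locus and 236 of the 12640 elsewhere.

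All 3 steps with 4 regions lay within 40 kb of Ifng, at 30 to 20 kb below it and at 10 to 20 kb and 30 to 40 kb above it. From 40 kb below Ifng to 70 kb above it every step was occupied, with counts of 2, 4, 1 and 3 on the lower side and 1, 4, 2, 4, 2, 1 and 1 on the upper side. Between 270 and 80 kb below Ifng, 19 steps in a row were empty, and Il22 lies among them.

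**Figure D2:**
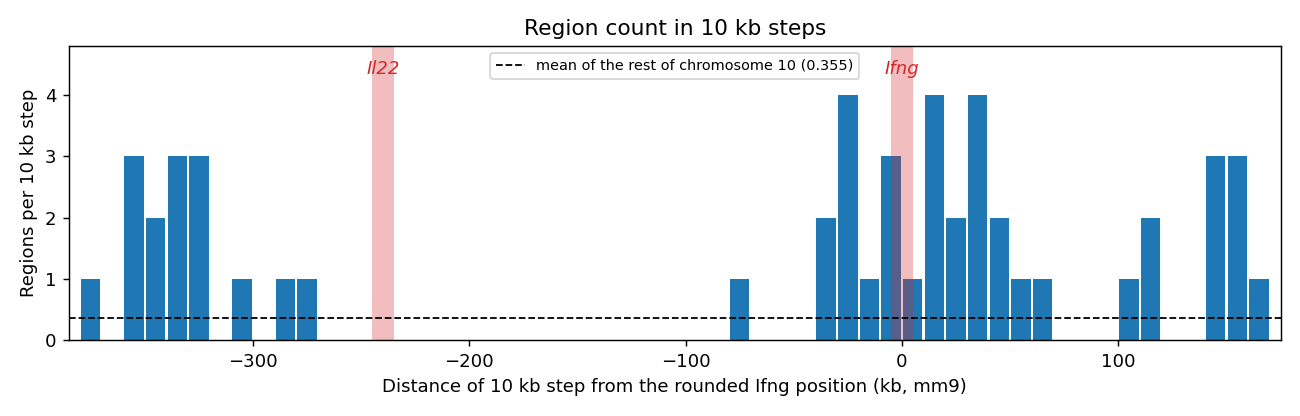
Number of region centres (vertical axis) in each 10 kb step, by distance from the rounded Ifng position in kb (horizontal axis, mm9); red bands are the gene positions with 5 kb on both sides, and the dashed line marks the mean elsewhere on chromosome 10 (0.355). The 3 tallest bars, of 4 regions, stand within 40 kb of Ifng, and 19 empty steps surround Il22.

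At Ifng itself, 3 regions lay within 5 kb of the position, and the rounding does not allow any of them to be placed at the start site. They were chr10:117877853-117878102 (250 bp), chr10:117879064-117879248 (185 bp) and chr10:117880112-117880317 (206 bp). Gaps of 961 and 863 bp separated them, and the trio spanned 2465 bp. The next region below was 5269 bp away (chr10:117872369-117872583, 215 bp). The next above was 15516 bp away (chr10:117895834-117896086, 253 bp), which was the longest gap inside the Ifng stretch.

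On the lower side of Ifng, where Il22 lies, 10 regions were found within 50 kb. The farthest of them, 226 bp wide, began the stretch 38.3 kb below the gene (chr10:117841599-117841824). A 298 bp region 35.9 kb below (chr10:117843943-117844240) was among the 5 widest of the locus. A 275 bp region followed 30.0 kb below (chr10:117849888-117850162).

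The lower side also held a compact trio near 23 kb from Ifng, of 205, 162 and 159 bp, within 1496 bp (chr10:117856039-117857534). The first and second of these were 72 bp apart. Together with the 275 bp region, whose centre lay just inside the step, this trio made up the 4 regions of the fullest step on that side. Between the trio and the gene stood a 296 bp region 13.4 kb below Ifng (chr10:117866445-117866740) and the 215 bp region named above.

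On the upper side, toward Ifngas1, 13 regions lay within 50 kb. The rounded position does not settle the side of the 3 regions within 5 kb of it, so the counts of 10 below and 13 above are approximate. The step at 10 to 20 kb held 4 of the regions on the upper side, of 253, 351, 209 and 261 bp. Within this group the last 3 spanned 1486 bp (chr10:117897228-117898713), and the 351 bp region (chr10:117897228-117897578) was the widest within 50 kb of Ifng. Regions of 259 bp (chr10:117906151-117906409) and 251 bp (chr10:117907779-117908029) followed 26.3 and 27.9 kb above the gene.

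The step at 30 to 40 kb above Ifng had a tight trio of 100, 203 and 108 bp in 606 bp (chr10:117914273-117914878), with gaps of 70 and 125 bp, and a 238 bp region 38.7 kb above the gene (chr10:117918586-117918823). A pair of 229 and 194 bp lay 44.0 and 44.9 kb above (chr10:117923899-117924982). Single regions of 191 bp at 52.6 kb and 185 bp at 64.9 kb closed the stretch. Of its 25 regions, 14 fell in 5 groups whose members were under 1000 bp apart, and 11 stood alone. Such groups held 50.5% of the regions on the rest of chromosome 10, so lying in a group of 2 or more was not particular to the stretch. Groups of 3 held 12 of its 25 regions, whereas groups of 3 or more held 23.8% of the regions on the rest of chromosome 10. The stretch was delimited after the positions were seen, so this is a description and was not tested. The positions of the conserved noncoding sequences known at this locus are not used here, so no region is assigned to one of them.

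Il22 lay in the longest stretch of the locus without a region. It ran for 197.7 kb (chr10:117609869-117807598), beginning 30.1 kb below the Il22 position and ending 167.6 kb above it. No region was listed within 25 kb of Il22, and 2 within 50 kb, both on the side of Mdm1. The nearest was a 279 bp region 30.3 kb away (chr10:117609590-117609868), and the other, of 179 bp, was 46.8 kb away (chr10:117593115-117593293). On the side toward Iltifb and Ifng the nearest was the lone region 167.7 kb away. The list does not report how well reads map in this stretch, so an empty stretch is one where no region was listed and not one shown to be closed.

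Of the 4537 gaps between neighbours on chromosome 10, 86 were longer than this one. It was the only gap over 50 kb in the locus. The second longest, of 42.4 kb, lay above the Ifng stretch (chr10:117944973-117987365), and 433 gaps on the chromosome exceeded it. The third, of 33.8 kb, separated the lone region from the Ifng stretch (chr10:117807795-117841598).

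Counted around each gene, Ifng and Il22 differed at every distance examined. Within 25 kb there were 12 regions at Ifng and 0 at Il22, within 50 kb 23 and 2, and within 100 kb 26 and 9. Beyond 50 kb Ifng gained only 3 regions up to 100 kb, whereas Il22 gained 7, all from the stretch below it. The same count was taken at 12640 positions spaced 10 kb apart on the rest of chromosome 10. Their median was 1 region within 50 kb, with 25th and 75th percentiles of 0 and 5, and 49.0% of them had none. At least as many regions as at Ifng were found within 50 kb of 114 positions (0.902%), within 25 kb of 1.78%, and within 10 kb and 100 kb of 6.62% and 6.68%. At least as many as at Il22 were found within 50 kb of 43.4% of the positions, and 58.3% had, like Il22, none within 25 kb. These positions overlap one another and include long stretches without any region, and the shares are descriptions with no test.

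**Figure D3:**
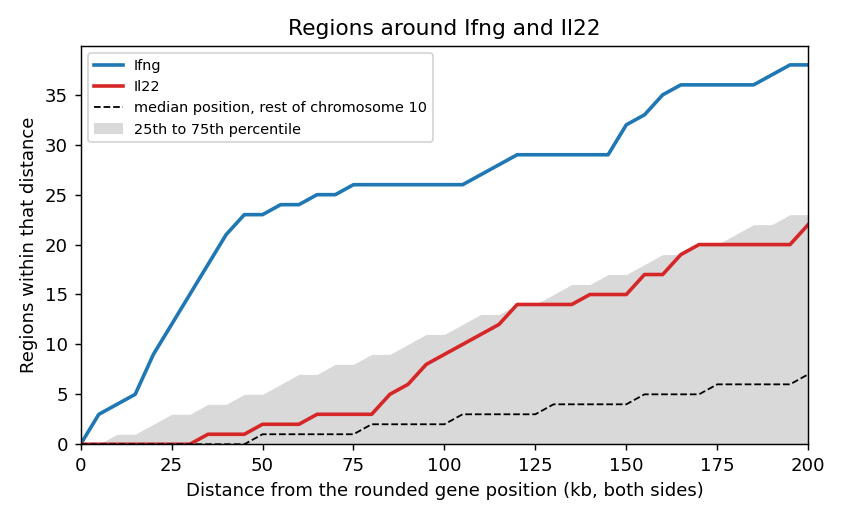
Number of regions (vertical axis) whose centre lies within a given distance in kb on both sides (horizontal axis) of Ifng (blue) and Il22 (red). The dashed line and grey band are the median and the 25th to 75th percentile of positions every 10 kb on the rest of chromosome 10; at 50 kb the counts are 23 for Ifng, 2 for Il22 and 1 for the median position.

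The stretch below Il22 had its own dense core. Linked at gaps of up to 12.5 kb, 11 of its 15 regions formed a cluster of 39.1 kb (chr10:117520166-117559253), at 2.81 regions per 10 kb. The same linkage split the Ifng stretch at its 15516 bp gap into a cluster of 11 regions below and at the gene (2.84 per 10 kb) and one of 14 above it (2.85 per 10 kb). At this limit the 3 clusters were thus alike in regions per 10 kb. Their median gaps differed, at 3171.5 bp below Il22, 3693.5 bp below and at Ifng, and 1369 bp above Ifng. The widest pair of regions of the whole locus lay in the cluster below Il22, with 410 bp (chr10:117547026-117547435) and 403 bp (chr10:117533310-117533712). The closest neighbours of the locus were there too, 3 bp apart (chr10:117558855-117559046 and chr10:117559050-117559253).

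Above the Ifng stretch, 10 regions lay 107 to 163 kb from the gene, in groups of 3 and 7. The group of 7 was the most compact cluster of the locus, with 3.97 regions per 10 kb over 17.6 kb (chr10:118025179-118042793). It included a 318 bp region (chr10:118036280-118036597), the fourth widest of the locus. Which of these lie inside Ifngas1 was not determined, since the RefSeq table is of another build.

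Compared with the rest of chromosome 10, the locus held 92.7 regions per Mb against 35.5, a ratio of 2.61. It made up 0.433% of the chromosome's length and 1.12% of its regions. Regions covered 2.04% of its bases, against 0.718% elsewhere. Cut into windows of the same 550 kb, the rest of the chromosome gave 229 windows with a median of 9 regions and 25th and 75th percentiles of 1 and 31. Of these, 199 (86.9%) held fewer than 51 regions, 30 held as many or more, and 54 were empty. The locus was thus in the upper part of the range without being extreme.

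The window just below it, chr10:116950001-117500000, held 99 regions and was the fullest of all, and the window just above held 36. When the window was moved in 10 kb steps, the fullest position was chr10:80560001-81110000 with 119 regions. At the window edges the last region below was 12.4 kb outside (166 bp) and the first inside 1.83 kb from the edge (218 bp). The last inside lay 7.21 kb from the upper edge (189 bp), and the first above was 15.1 kb outside (255 bp).

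**Figure D4:**
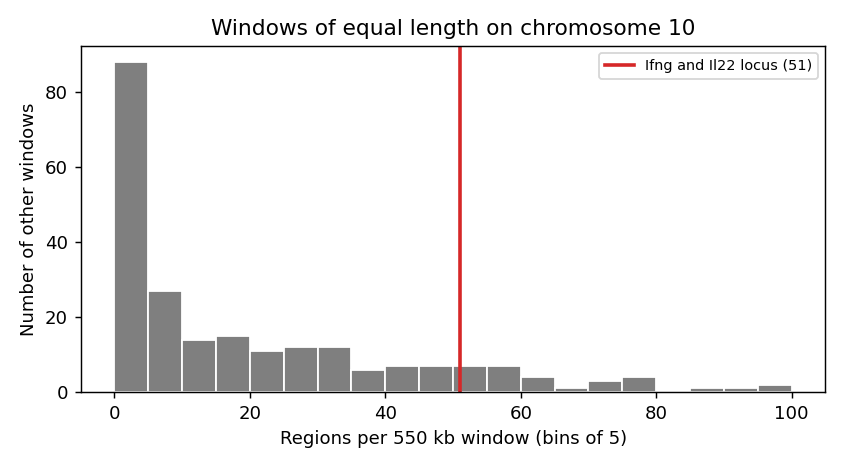
Number of 550 kb windows of chromosome 10 outside the locus (vertical axis) by the number of regions they hold (horizontal axis, bins of 5). The red line marks the locus with 51 regions; 30 of the 229 other windows held as many or more.

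The regions of the locus, which were chosen by position and not by width, had a higher median width than those elsewhere on the chromosome. Their median width was 209 bp, against 192 bp for the 4487 others. The 95% interval of the locus median from binomial ranks was 194 to 226 bp. This interval takes regions as independent, says nothing about the spread between mice, and is no test of the difference. The 25th and 75th percentiles were 187 and 250.5 bp, against 166 and 229 bp. Regions of 250 bp or more made up 27.5% of the locus (14 of 51) and 16.9% of the rest. Those of 300 bp or more made up 7.84% (4 of 51) and 6.62%, and those of 400 bp or more 3.92% (2 of 51) and 0.891%. Of the 14 regions of 250 bp or more, 9 were among the 25 of the Ifng stretch, 3 among the 15 below Il22 and 2 among the 10 above the Ifng stretch. The median was 215 bp in the Ifng stretch, 209 bp below Il22 and 194.5 bp above the Ifng stretch. The 5 widest, of 410, 403, 351, 318 and 298 bp, were spread over all 3 stretches.

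The list has 12 exact widths that occur far more often than their neighbours, and 13.5% of the other regions of chromosome 10 had one. In the locus 5 regions (9.80%) did, with widths of 100, 108, 130, 140 and 150 bp. The first 2 belonged to the tight trio above Ifng, and the other 3 to the stretch beyond it. The stretch below Il22 had none.

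Over all 50 gaps of the locus the median was 4985.5 bp, against 4856 bp on the rest of the chromosome. Within the stretches the spacing differed, with a median gap of 2912.5 bp around Ifng, 6041 bp below Il22 and 4089 bp above the Ifng stretch. Gaps under 12.5 kb made up 82.0% of the 50 gaps in the locus and 70.2% of the others. Gaps under 500 bp were not more frequent, at 8 of the 50 gaps (16%) against 23.5%. Groups of neighbours under 1000 bp apart held 22 of the 51 regions (43.1%), against 50.5% elsewhere. Groups of 3 held 12 regions (23.5%), and groups of 3 or more held 23.8% elsewhere. All 4 such trios lay in the Ifng stretch, so these 12 regions were all among its 25.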

How the data were processed

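The values used are the start and end positions of the open chromatin regions in 1 list that the authors deposited for the whole series, with no score, count or signal and no column for a sample. Build mm9 and the tools HOMER 4.6, Picard 1.130, SAMtools 1.3, Bowtie2 2.2.4 and cutadapt 1.8.3 are given, without roles or settings, per the submitters' processing notes. How regions of the 16 samples were called and combined is not given in the sources used here, and these steps decide which regions are listed. Per the labels' protocols, 10000 cells were sorted per sample.

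Width is the file's end minus its start, and printed starts were raised by 1 to be 1-based. A region entered a 10 kb step, or a distance, by its centre. The rest of chromosome 10 runs from the first to the last region without the window, 126.4 Mb. A width counted as outstanding when it held over 5 times the median number at widths within 8 bp, with that median at least 10. The window, the motifs and the rule for named regions (the widest, those nearest each gene, those in the fullest steps, beside the longest gaps, in the closest pair and at the edges) were chosen with earlier results of these data known, and further regions of the Ifng stretch were named after their values were seen. Promoter sequences are from RefSeq (GRCm38.p6), and all 3 genes looked up were found. The shared stretch of Il22 and Iltifb is the best ungapped match. No test was run, because the window was chosen on this list. The planned comparison of each tissue with spleen was not run, since it takes values for single samples, nor was the pathway gene list, which needs positions on mm9. Counting was tested on simulated data. Python 3.11.15, numpy 2.4.6 and pandas 2.3.3 were used.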

Additional observations from a re-analysis of the deposited data

How the results depend on the processing

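No paired analysis was possible because single samples have no values in this list, and leaving out a replicate was not possible either. The number of regions in the locus stayed between 35 and 57, and its density ratio to the rest of chromosome 10 between 2.19 and 3.61, under all alternatives run for them. The share of occupied steps was 30.9% with steps of 5 kb, and between 38.2 and 55.6% under the other alternatives. The matching shares on the rest of chromosome 10 are not given here, so these values cannot be set beside its 18.6%. The median width rose to 229 bp with regions merged within 500 bp and to 239.5 bp with merging within 1000 bp, by construction. Around Ifng the count was 12 within 25 kb and between 18 and 26 under the other alternatives. Around Il22 it was 1 with the gene position 5 kb higher, 1 with only regions of the list's median width or more, 0 within 25 kb and 9 within 100 kb. The 3 alternatives run for the stretch without regions at Il22, chosen after seeing the data, only merged or removed regions and could not have shortened it. Unknown depth and unknown mappability limit what an empty stretch can show.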

Other observations

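Long stretches without a region, as at Il22, were looked at elsewhere in the list by the number of regions at their ends. On chromosomes 1 to 19 and X, 1726 gaps were at least as long as the 197.7 kb gap that holds Il22. Within 100 kb of its 2 ends the Il22 gap had 14 regions below and 17 above, 31 in all. The other 1725 gaps had a median of 8 regions at their ends, and 14 of them (0.812%) had 31 or more, in part with nearly all of them at 1 end. At least 14 regions at each end, as at Il22, were found for 5 of the 1725 (0.29%). The highest sum, 42, belonged to a gap of 270.3 kb on chromosome 16 (mm9, chr16:91081996-91352293). These gaps were picked for their length and ends after the Il22 gap had been seen, so the share is a description. The genes in them were not assigned.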
